A study of Oryza sativa with 40 samples.

Results

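The genes described here are the invertases and sucrose synthases of rice that the study listed as diurnal in its tables for sucrose and starch pathways. They were taken as the probe sets whose functional class in those tables is sucrose degradation by sucrose synthase or by invertase. This gave 11 probe sets of 9 loci, out of 57194 rice probe sets on the array. Of the 11 probe sets, 2 stand for cell wall invertases, 3 for vacuolar invertases, 4 for neutral invertases and 2 for sucrose synthases. The study listed 7 of them for flag leaves alone, 2 for seedling leaves alone and 2 for both tissues. The study combined the correlation between replicate series, a match to a cosine and ARSER. The last is a spectral method that can also find courses unlike a cosine. The probe sets were thus chosen by the daily course of their signals on these arrays. The rhythms below are therefore a description without a test. For 9 of the 11 probe sets the array annotation gave 1 RefSeq gene, and 5 loci carried a RefSeq name. For the other loci the enzyme class is the study's own annotation.

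All plants were Nipponbare. Seedling leaves came from 17-day-old plants of a greenhouse kept at 28 °C in the light and 25 °C in the dark. Flag leaves, the last leaf below the panicle, came from 3-month-old plants of the field that were entrained at 32 °C and 30 °C. Tissue, age and growth conditions therefore cannot be told apart. Each tissue was sampled at 10 time points 4 h apart, from 8 h to 44 h after midnight of the first day, with light from 8 h to 20 h on each day, and each time point had 2 biological replicates, 40 arrays in all. The values are signals on a linear scale, and differences were computed on log2(signal + 32).

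Sucrose is the form in which most plants move carbon out of their leaves. Invertases split it into glucose and fructose and cannot run backwards. Cell wall invertases act outside the cell, vacuolar invertases act in the vacuole, where both work best at acid pH, and neutral invertases act in the cytosol or in organelles. Sucrose synthases cleave sucrose with UDP into fructose and UDP-glucose in a reversible reaction, and they are best known from tissues that import carbon, such as filling grains.

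The middle of each array's signals, its median, was 50.5 to 68.2 for seedling leaves and 48.8 to 64.4 for flag leaves, and lower signals are close to background. The labelled tissue was checked with 11 probe sets of photosynthetic leaf genes, whose median signal was 19539 in seedling and 29225 in flag leaves. The dimmest of these 11 had a mean signal of 15.8 and 29.1, below the array medians. For 8 probe sets of grain storage proteins the median signal was 29.1 and 46.6. The brightest of these 8 had a mean signal of 1194 and 1678. Leaf blades hold several cell types, and fewer cells of a type and less RNA per cell cannot be told apart in such samples. The labels of the second and eighth time points read as midnight but were taken as noon, as the study's sampling table has them.

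The 2 cell wall invertases both stood higher in flag leaves, and their daily courses differed in shape. OsCIN4 (LOC_Os01g73580) ran from 322 to 752 with a median of 610 in the 20 seedling arrays, whereas the 20 flag arrays had 616 to 2175 with a median of 884. In flag leaves it was highest at the end of the night. The 2 replicates read 1247 and 1619 at 8 h, 742 and 761 at 12 h, and 1784 and 2175 at 32 h, and they were 679 and 782 at 16 h. The second replicate was the higher one at each of the 10 flag time points. In seedling leaves the highest and the lowest mean differed by 1.86 times. Both flag arrays were above both seedling arrays at 9 of 10 time points, with the mean difference at 0.80 (SE 0.07) on the log2 scale and an adjusted p of 3.0e-10 in limma.

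OsCIN1 (LOC_Os02g33110) had the clearest midday course of the class in flag leaves. Its flag signals ran from 721 to 6159 (median 2768), with replicates of 6159 and 4366 at 12 h, 4760 and 5166 at 16 h, 846 and 1132 at 28 h, and 5737 and 5092 at 36 h. The highest mean was 5.47 times the lowest. In seedling leaves it ran from 1259 to 3267 (median 1457), with a maximum at 44 h, where the replicates read 3267 and 3001, against 1439 and 1466 at the same clock hour of the first day. Flag leaves were above seedling leaves at 6 time points and below them at 2, so the order of the tissues depended on the hour. The mean over the day was 0.59 (SE 0.07) higher in flag leaves on the log2 scale (limma adjusted p = 1.7e-08).

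**Figure D1:**
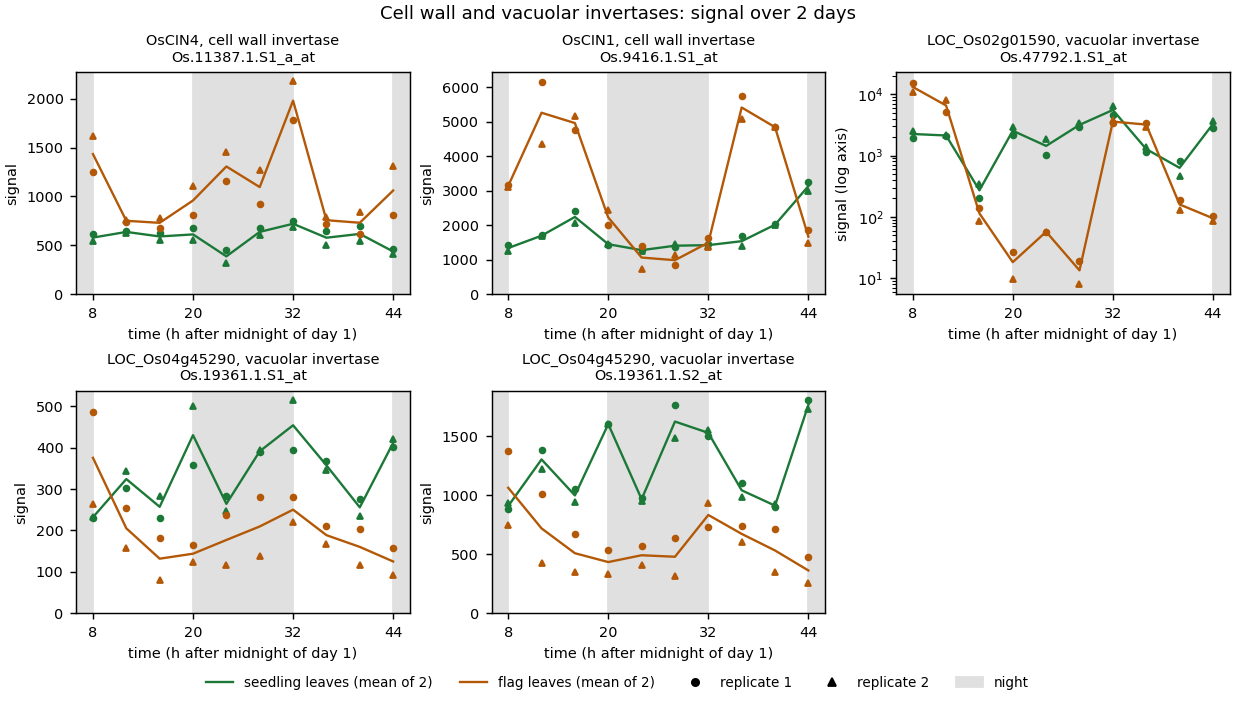
Signal (y axis, linear except for LOC_Os02g01590, where the axis is logarithmic) against time (x axis, h after midnight of day 1) of the 5 probe sets for cell wall and vacuolar invertases. Points are the 2 replicates, lines their mean, and grey marks the night. LOC_Os02g01590 spans 8 to 15472 in flag leaves, and OsCIN1 is highest in flag leaves around the middle of both days.

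On the log2 scale the vacuolar invertases were lower in flag leaves on average, the reverse of the listed cell wall invertases. For LOC_Os02g01590 this depends on the scale. Without a logarithm its mean signal was higher in flag leaves, at 2688 against 2245 in seedling leaves. LOC_Os02g01590 had the widest daily range of all members. In flag leaves its replicates read 15472 and 10775 at 8 h, 5064 and 8000 at 12 h, and 141 and 86.9 at 16 h. They then stayed low through the night at 27.0 and 9.6 at 20 h and 18.9 and 8.0 at 28 h, and were 3360 and 3786 at 32 h. The highest mean was 976 times the lowest, but 5 flag arrays lay below their array's median, so the size of this ratio rests on values near background. In seedling leaves the low point was in the afternoon, with 200 and 342 at 16 h and 800 and 459 at 40 h, while the readings at 20 h were 2190 and 2880. Thus the transcript was low at 16 h and 40 h in both tissues. From 20 h to 28 h and at 44 h it was low in flag leaves alone. The seedling means at 24 h and 28 h were 1433 and 3156, against flag means of 57.3 and 13.45. Both flag arrays were above both seedling arrays at 3 time points and below them at the other 7. The mean difference was -1.85 (SE 0.10) on the log2 scale (limma adjusted p = 1.6e-14), and -1.01 without the arrays of 20 h and 44 h.

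LOC_Os04g45290 was measured by 2 probe sets, which correlated at 0.91 in seedling and 0.90 in flag leaves over 10 time points, so they are one gene and not 2 results. The probe set ending in S2 had seedling signals of 884 to 1803 (median 1161) and flag signals of 251 to 1374 (median 588). That ending in S1 ran from 230 to 515 and from 80.6 to 486. Flag leaves were below seedling leaves at 9 of 10 time points by either probe set. The mean differences were -1.09 (SE 0.12) for S2 and -0.75 (SE 0.11) for S1, with limma adjusted p-values of 1.2e-08 and 7.9e-07, and that of S1 was -0.44 without flag replicate 2. The flag replicates of this gene differed widely, with 1010 against 425 at 12 h and 712 against 349 at 40 h for S2, and the correlation between the replicate series was 0.55. This was the smallest value among the listed courses, just inside the limit of 0.5. Among the other family genes OsSUS1 in flag leaves, with 0.41 by its brighter probe set, was the nearest below that limit.

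The neutral invertases did not share a direction. OsNIN1 (LOC_Os03g20020) stayed between 1190 and 2178 in seedling leaves (median 1650), while its flag signals were 1176 to 5939 (median 2268). There the replicates read 3807 and 4666 at 8 h, 1258 and 1176 at 20 h, and 4896 and 5939 at 36 h, so that the morning was high and the evening low. At 20 h both flag arrays were below both seedling arrays, whereas at 8 h they were far above them. Flag leaves were above at 7 time points and below at 2, and the mean difference was 0.53 (SE 0.05) on the log2 scale (limma adjusted p = 2.3e-09).

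LOC_Os04g33490, listed for seedling leaves alone, was measured by 2 probe sets that correlated at 0.95 and 0.94 in seedling and flag leaves. The probe set ending in S1_s_at ran from 454 to 1157 (median 739) in seedling leaves. It was high at night there, with 856 and 1157 at 24 h and 881 and 1073 at 28 h, and low by day, with 484 and 454 at 16 h and 468 and 497 at 36 h. In flag leaves it was highest at noon, with 1336 and 1888 at 36 h against 688 and 753 at 24 h. The flag means at 16 h and 40 h, 620 and 689, were below those of 721 at 24 h and 704 at 28 h. The tissues differed in timing more than in their average. The mean difference was 0.18 (SE 0.07; limma adjusted p = 0.032) by this probe set and 0.05 (SE 0.11; adjusted p = 0.68) by the other. With the replicate series as a random block the first adjusted p was 0.25, and the 4 differences between single series of the tissues ran from -0.05 to 0.40. Its difference was also no longer called without seedling replicate 1 (0.10, adjusted p = 0.44) or flag replicate 2 (0.03, adjusted p = 0.64).

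LOC_Os11g07440, listed for both tissues, was highest around dusk in both. In seedling leaves it ran from 127 to 698 (median 272), with 522 and 545 at 20 h, 169 and 131 at 8 h, and 698 and 602 at 44 h. In flag leaves it ran from 6.4 to 487 (median 174), with 487 and 376 at 20 h, 11.5 and 11.5 at 36 h, and 464 and 417 at 40 h. The low values were further apart between the tissues than the high ones, and in flag leaves 6 arrays fell below their array's median. The mean difference was -0.92 (SE 0.14) on the log2 scale (limma adjusted p = 1.7e-06), and it was -0.54 with a constant 4 times larger and -1.36 with 1 as the constant added before the logarithm.

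**Figure D2:**
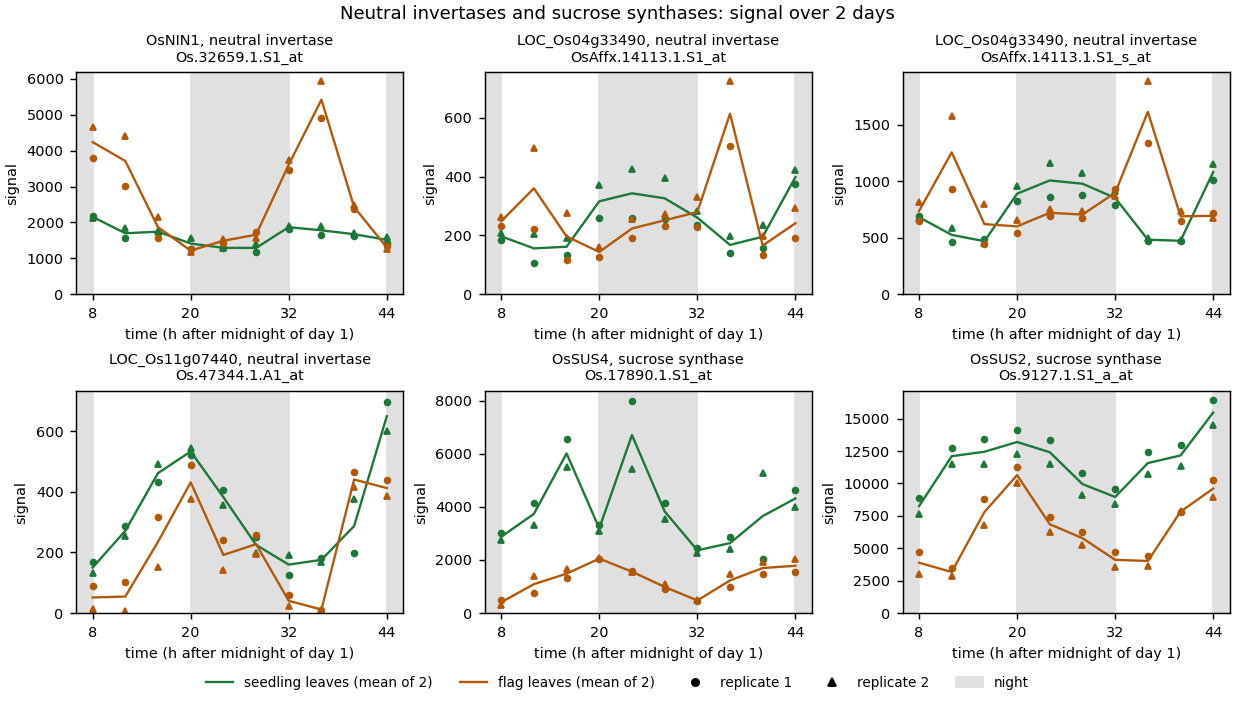
Signal (y axis, linear) against time (x axis, h after midnight of day 1) of the 4 probe sets for neutral invertases and the 2 for sucrose synthases. Points are the 2 replicates, lines their mean, and grey marks the night. Both sucrose synthases lie lower in flag leaves at all 10 time points, and LOC_Os04g33490 is high at night in seedling leaves but at 36 h in flag leaves.

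Both sucrose synthases were lower in flag leaves at every hour. OsSUS2 (LOC_Os06g09450) had signals of 7643 to 16445 in the seedling arrays (median 11485), and of 2841 to 11263 in the flag arrays (median 6286). In flag leaves its replicates read 4719 and 3049 at 8 h, 11263 and 10024 at 20 h, and 4435 and 3598 at 36 h. The flag readings at 12 h were 3500 and 2841, the lowest of their course. Seedling leaves had a flatter course, with 8858 and 7643 at 8 h, 12730 and 11482 already at 12 h, and 14101 and 12302 at 20 h. The mean difference was -0.96 (SE 0.06) on the log2 scale (limma adjusted p = 6.0e-13).

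OsSUS4 (LOC_Os03g22120) ran from 307 to 2064 (median 1440) in flag leaves, with 506 and 307 at 8 h, 2040 and 2064 at 20 h and 443 and 507 at 32 h. In seedling leaves it ran from 2027 to 7978 (median 3431) and had no single peak, with 6542 and 5490 at 16 h, 3313 and 3074 at 20 h, and 7978 and 5439 at 24 h. The lowest seedling value stood beside a replicate of 5281 at 40 h, so the replicates disagreed at that hour. The mean difference was -1.67 (SE 0.10) on the log2 scale (limma adjusted p = 1.8e-13). At all 10 time points both flag arrays of OsSUS2 and of OsSUS4 were below both seedling arrays, as was the case for 11.2% of the 25948 probe sets tested.

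Over the 11 member probe sets, 10 differed in level between the tissues by limma, 4 higher and 6 lower in flag leaves. Across the array 77.6% of the probe sets differed, 39.3% higher and 38.3% lower, so that the number of members called is close to what the arrays gave in general. What differed among the members was the direction of the classes. On the log2 scale both cell wall probe sets were higher, and all 3 vacuolar probe sets and both sucrose synthases were lower. Of the neutral class 2 were higher, 1 was lower and 1 was not called. The median difference was 0.70 for the cell wall class, -1.09 for the vacuolar class, 0.12 for the neutral class and -1.32 for the sucrose synthases, against 0.02 over all probe sets tested. Arrays of one replicate number deviated together, and with the replicate series as a random block 15445 in place of 20138 probe sets were called, including 9 of the 11 members. The difference between classes rests on 2 or 3 loci in each and was not tested.

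**Figure D3:**
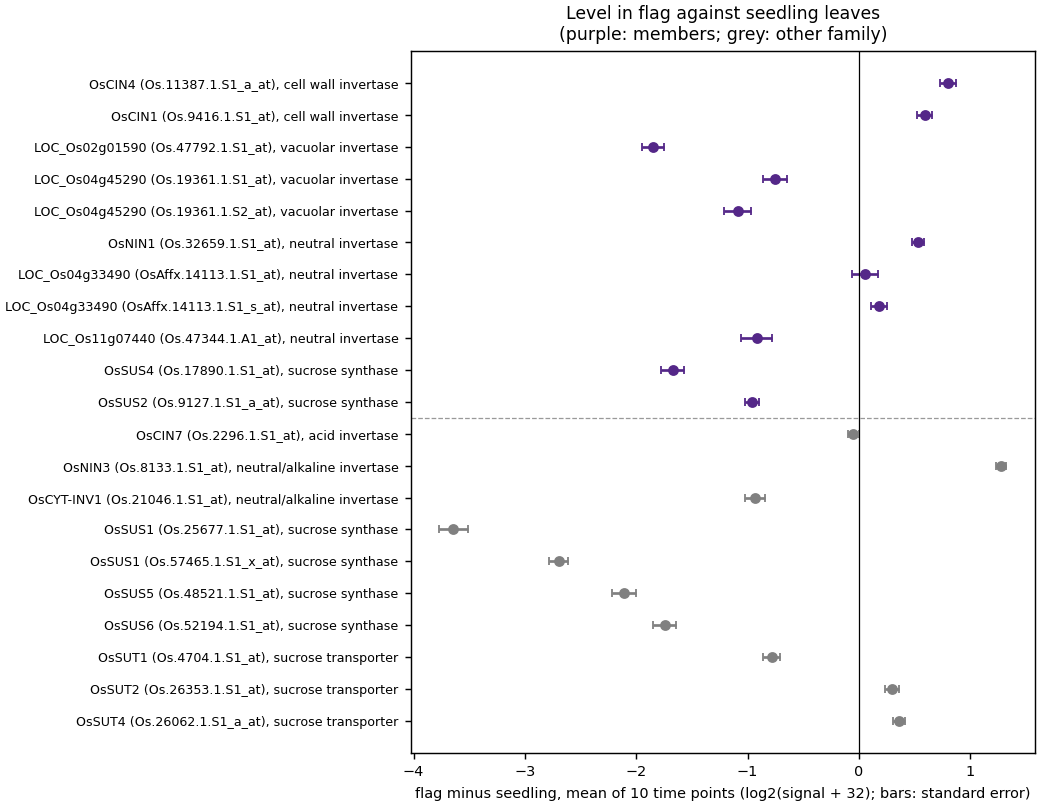
Difference in level between flag and seedling leaves (x axis, log2(signal + 32), mean of 10 time points) for the member probe sets and the other measured genes of the family (y axis). Points are limma estimates and bars their standard errors. Of the members, both cell wall invertases lie to the right of 0, and the vacuolar invertases and both sucrose synthases to the left. OsSUS5 and OsSUS6 passed the filter through seedling leaves alone.

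The course over the day was also summarised by a cosine of 24 h with a linear trend, fitted to both replicates in each tissue. Its amplitude is the distance from the mean to the peak. The amplitude was larger in flag leaves for 9 of the 11 probe sets and smaller for the 2 of LOC_Os04g33490. This split follows the listing and is no separate result. Of the 9, 7 were listed for flag leaves alone, and the 2 of LOC_Os04g33490 for seedling leaves alone. On the whole array the median amplitude was 0.43 in flag leaves against 0.24 in seedling leaves. limma called 42.5% of the 24298 tested probe sets rhythmic in seedlings, against 69.5% of 23376 in flag leaves. The members are not counted against these shares, since their rhythm chose them.

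By class, most fitted peaks of the acid and neutral invertases in flag leaves lay between the second part of the night and early afternoon. Those of the sucrose synthases lay at dusk. In flag leaves the fitted peak of OsCIN4 was at 4.1 h (SE 0.8) with an amplitude of 0.53, that of LOC_Os02g01590 at 10.2 h (SE 0.5) with 3.55, and that of OsNIN1 at 10.2 h (SE 0.4) with 0.98. OsCIN1 peaked at 14.0 h (SE 0.3) with an amplitude of 1.36. OsSUS4 followed at 19.4 h (SE 0.6) and OsSUS2 at 20.9 h (SE 0.5), with amplitudes of 0.88 and 0.72. LOC_Os11g07440, an invertase too, peaked at 21.2 h (SE 0.7) with 1.46. The difference in peak between OsSUS2 and LOC_Os11g07440 in flag leaves was smaller than either standard error.

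In seedling leaves the order was partly different. OsSUS2 peaked at 19.0 h (SE 0.8) and LOC_Os11g07440 at 20.2 h (SE 0.5), which is 1.9 h and 1.0 h from their flag leaf peaks. OsSUS4 had a fitted peak at 21.5 h (SE 1.3), but its signal there was low at 20 h between higher readings at 16 h and 24 h, so this hour does not describe its course. OsCIN4 had a fitted peak at 10.6 h (SE 1.4) with an amplitude of 0.22 (SE 0.08), 6.6 h after that in flag leaves. However, its highest mean was at 32 h in both tissues, with 721 in seedling and 1980 in flag leaves. These fitted hours therefore do not give the time of its maximum. The peak of OsNIN1, at 11.5 h (SE 0.9), was 1.2 h from that in flag leaves, and OsCIN1, at 16.9 h (SE 1.1), was 2.9 h later than there. Without the 44 h arrays the seedling peak of OsCIN1 moved to 15.5 h. The peaks of LOC_Os04g33490, at 1.5 h (SE 0.5) and 0.7 h (SE 0.6) by its 2 probe sets, were 8.9 h and 8.6 h before those in flag leaves. The fitted peak of LOC_Os02g01590, at 4.4 h (SE 1.0), was 5.8 h before. However, the highest mean of this gene was at 32 h in seedling and at 8 h in flag leaves, which is the same clock hour. The fitted hours therefore do not describe its course. For LOC_Os04g45290 in seedling leaves the amplitudes were 0.12 and 0.19 with standard errors of 0.11 and 0.12, so no peak time can be given there.

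**Figure D4:**
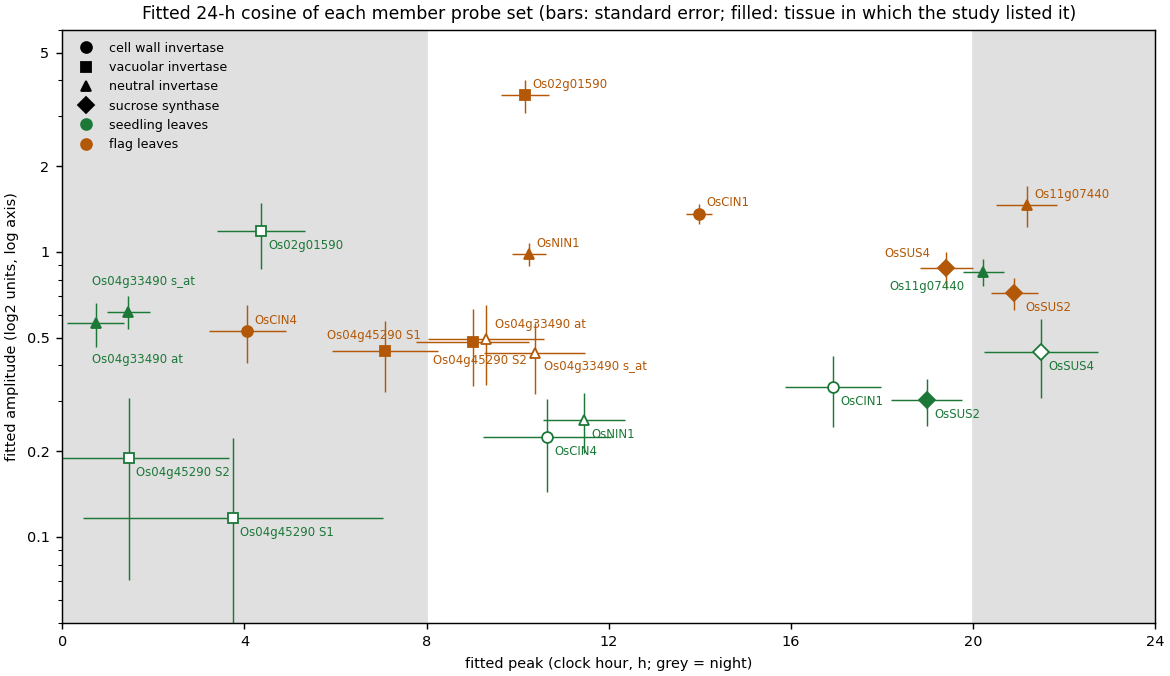
Fitted amplitude (y axis, log2 units on a logarithmic axis) against fitted peak (x axis, clock hour) of the 11 member probe sets in both tissues. Bars are standard errors, shapes the enzyme classes, filled symbols the tissue in which the study listed the probe set, and grey the night. LOC_Os02g01590 in flag leaves has the largest amplitude, 3.55, and in flag leaves both sucrose synthases peak near dusk.

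The second day can be set against the first at 4 clock hours, 8, 12, 16 and 20 h against 32, 36, 40 and 44 h, a comparison the rule did not use. By limma 0 of the 11 members changed between the days in either tissue, against 3.35% of all probe sets for seedling leaves and 3.19% for flag leaves. At an unadjusted p under 0.05 there were 2 in seedling and 3 in flag leaves. The change differed between the tissues for 2 members, OsCIN1 and LOC_Os02g01590, against 3.94% of all probe sets. The replicate numbers mark series that deviate together, and with them as a block some members were called within a tissue. Then LOC_Os02g01590 was called higher on the second day in seedling leaves (adjusted p = 0.024), and in flag leaves OsCIN1 was called lower (adjusted p = 0.026) and the S1_at probe set of LOC_Os04g33490 higher (adjusted p = 0.021). In that limma fit 8.63% of all probe sets were called in each tissue and 10.4% for the difference.

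For OsCIN1 the mean signal of the 4 hours went from 1748 to 2105 in the first and from 1619 to 1953 in the second seedling series. In flag leaves it went from 4030 to 3515 and from 3767 to 3198. Both seedling series were thus higher and both flag series lower on the second day. The difference of the changes was -0.58 (SE 0.15) on the log2 scale (limma adjusted p = 0.027). Without the arrays of 20 h and 44 h it was -0.28 (adjusted p = 0.57), and the seedling readings at 44 h were the highest of their series.

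For LOC_Os02g01590 the mean signal went from 1595 to 2351 and from 1990 to 2992 in seedling leaves, and from 5176 to 1771 and from 4718 to 1738 in flag leaves. Here too both series of a tissue moved the same way. The difference of the changes was -0.78 (SE 0.22; limma adjusted p = 0.048), and with 1 in place of 32 added before the logarithm it was -0.50 (adjusted p = 0.44). Neither difference was called without one of the seedling replicate series (adjusted p-values of 0.50 and 0.43 for OsCIN1 and of 0.48 and 0.17 for LOC_Os02g01590). That of LOC_Os02g01590 was not called without either flag series (0.13 and 0.11).

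Other genes of the pathway were looked for by their RefSeq symbols. Of 16 further invertase, sucrose synthase and sucrose transporter genes 13 had a probe set, 16 probe sets in all, and none of OsCIN5, OsCIN6 and OsSUS7 had one. The probe sets of OsCIN2, OsCIN3, OsSUS3 and OsSUT5 and 1 each of OsSUS6 and OsSUT2 did not reach a mean signal of 100 in either tissue. Of the other 10, limma called 3 higher and 6 lower in flag leaves, beside the 39.3% and 38.3% of the whole array, and 2 of the 6 passed the filter through seedling leaves alone.

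Of the sucrose synthases outside the list, OsSUS1 was lower in flag leaves. By its brighter probe set it had seedling signals of 843 to 3465 (median 2281) and flag signals of 26.1 to 308 (median 175), with no overlap between the tissues. The difference was -3.64 (SE 0.13) by this probe set and -2.70 (SE 0.08) by the other, with limma adjusted p-values of 2.6e-18 and 1.9e-19. OsSUS5 and 1 probe set of OsSUS6 reached a mean of 100 in seedling leaves alone, so that a lower level in flag leaves followed from the filter and is given as a description. OsSUS5 had 105 to 276 in seedling leaves but 1.9 to 71.1 in flag leaves, where 18 of 20 arrays were below their median. OsSUS6 had 94.1 to 236 in seedling leaves but 1.7 to 53.4 in flag leaves, where 20 of 20 arrays were below it. The other probe set of OsSUS6, which was too dim to test, was not lower in flag leaves, with differences of 0.11 to 0.26 between single series. No direction is therefore given for the sucrose synthases as a class.

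The other invertases went different ways. OsCIN7 did not differ by the test (-0.05, SE 0.05, limma adjusted p = 0.35). It is a further acid invertase, with a symbol like those of the cell wall members OsCIN1 and OsCIN4. A higher level in flag leaves is therefore given for the listed cell wall probe sets alone. OsNIN3, a neutral or alkaline invertase, had seedling signals of 2821 to 4976 against flag signals of 7295 to 13842, with no overlap (1.27, SE 0.05; limma adjusted p = 1.1e-17). Only 6.95% of all probe sets had both flag arrays above both seedling arrays at all 10 time points, as OsNIN3 did. OsCYT-INV1, which encodes a cytosolic invertase, had seedling signals of 722 to 1503 against 248 to 1124 in flag leaves and was lower there (-0.93, SE 0.09; limma adjusted p = 6.2e-10).

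The sucrose transporters, which carry sucrose across membranes, were also mixed. OsSUT1 was lower in flag leaves (-0.79, SE 0.08; limma adjusted p = 2.7e-09). OsSUT2 (0.30, SE 0.06; adjusted p = 8.0e-05; 0.16 without seedling replicate 2 and 0.46 without the 20 h and 44 h arrays) and OsSUT4 (0.36, SE 0.05; adjusted p = 1.6e-06) were higher. In flag leaves OsSUT1 was high at night and low in the afternoon, with 3050 and 2494 at 28 h and 750 and 549 at 40 h. Its fitted peak there was at 3.1 h (SE 0.4) with an amplitude of 0.99, so that it was high when OsCIN1 was low. OsSUT1 and OsSUT4 are in the study's tables under another class, so their rhythm is a description too.

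By the rhythm fit limma called 5 of 10 tested probe sets of these other genes in seedling leaves (OsCIN7, OsNIN3, both of OsSUS1 and OsSUS5) and 7 of 8 in flag leaves, beside 42.5% and 69.5% on the array. OsNIN3 was the one not called in flag leaves (adjusted p = 0.050). It was called with the replicate block (adjusted p = 0.040) and in 4 of 9 alternatives in all. OsCIN7 peaked at 15.6 h (SE 0.4) in seedling and at 20.4 h (SE 0.9) in flag leaves. OsSUS1 peaked at 17.2 h (SE 1.1) in seedling and at 21.5 h (SE 0.9) in flag leaves by its brighter probe set. Whether a gene is in the study's tables was decided on the same arrays, so these counts are no independent view of the family. None of the 10 probe sets changed between the days by limma, in either tissue or in the difference. In seedling leaves 4 had an unadjusted p under 0.05. Some were called under alternatives, of which 12 were tried. For seedling leaves these were the dimmer OsSUS1 probe set and OsSUS6 in 3 each. The brighter OsSUS1 probe set and OsCIN7 were called there in 2 each, and OsSUT2 in 1. In flag leaves the brighter OsSUS1 probe set was called in 1. For the difference the dimmer one was called in 2 and OsCIN7 in 1.

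**Figure D5:**
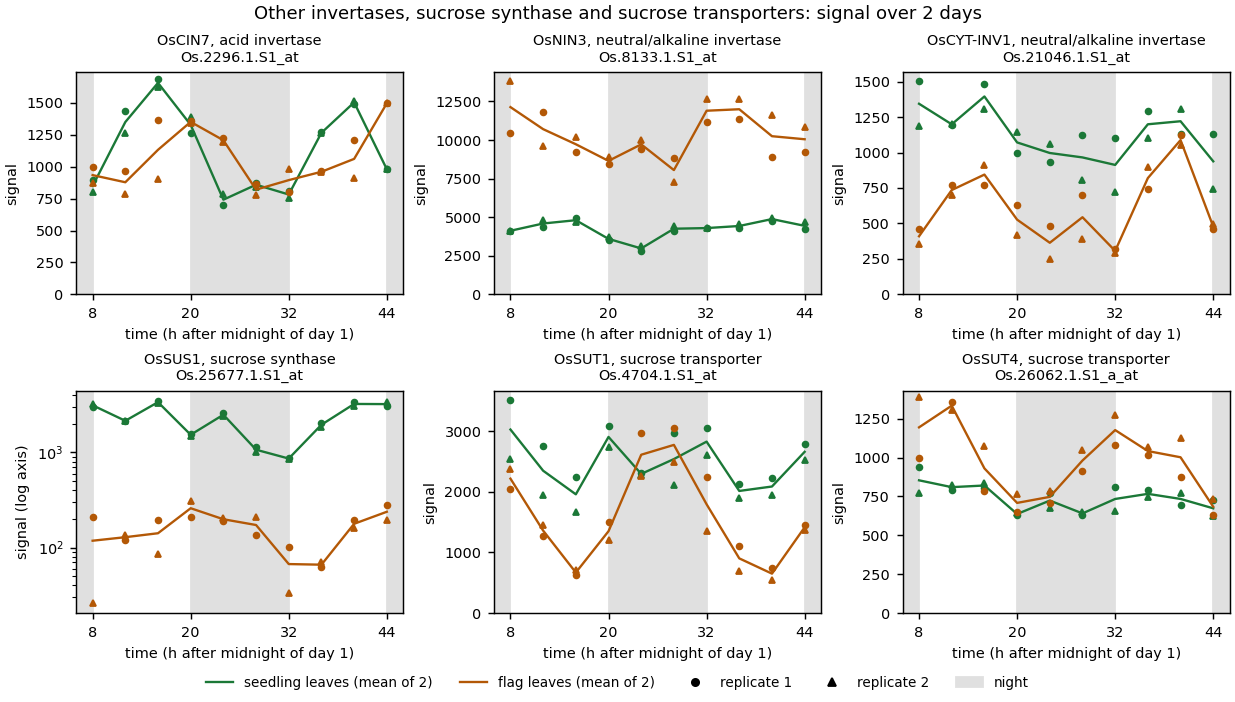
Signal (y axis, linear except for OsSUS1, where the axis is logarithmic) against time (x axis, h after midnight of day 1) of 6 probe sets of other invertase, sucrose synthase and sucrose transporter genes. Points are the 2 replicates, lines their mean, and grey marks the night. OsSUS1 is at most 308 in flag leaves and at least 843 in seedling leaves, and OsNIN3 is higher in flag leaves at every hour.

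The named genes whose course over the 20 means of tissue and time was most like that of a member were sought for the brightest member of each class, among about 2239 probe sets with a gene name. OsCIN1 was most like OsABA1 (r = 0.90), OsTIP1 (0.90) and OsCIPK19 (0.90). LOC_Os02g01590 was most like OsCIPK05 (0.95), OsCIPK06 (0.95) and MHX1 (0.93), and OsNIN1 most like OsCAD3, OsDSM3 and CBL4 (0.94 each). OsSUS2 was most like OsFEN-1 (0.95) and both probe sets of CAT-B (0.95 and 0.94). These correlations are a description over 20 points that share arrays, and the difference between tissues enters them beside the daily course.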

How the data were processed

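Signals of 40 Affymetrix Rice Genome arrays were used. The authors extracted 1 signal intensity per probe set with GCOS (MAS5 algorithm, version not given), brought every array to the target value 500 and deposited these intensity values without a logarithm. Of 57381 entries 187 controls were left out. Precision is limited by the number of arrays. Samples were grouped by tissue and time as labelled, though the description of each sample names seedling leaves at 8 am. Replicates are labelled as biological, with no word on which plants they came from.

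On log2(signal + 32) of the 25948 probe sets with a mean of at least 100 in either tissue, limma 3.58.1 (R 4.3.3) fitted a mean for each tissue and time (20 residual degrees of freedom). Contrasts gave the level of flag against seedling leaves and the change from day 1 to day 2. Rhythms were fitted by tissue with a linear trend and a 24 h cosine of free phase, tested with the moderated F. All p-values were adjusted by Benjamini-Hochberg over the whole table at 0.05. Replicate correlation (limit 0.5) followed the study. Python 3.11.15, numpy 2.4.6, pandas 2.3.3 and matplotlib 3.10.9 were used.

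Differences between replicates correlated in all 45 pairs of time points in each tissue (seedling leaves, r of 0.27 to 0.51; flag leaves, 0.19 to 0.43), so the replicate numbers pair the samples within a tissue. Alternatives were other constants, quantile normalization, median centring, no filter, the replicate block, and leaving out replicates or hours. The random block, with a consensus correlation of 0.29, and the fit without 20 h and 44 h were chosen after seeing the data. Data were also simulated with the spread of the real arrays. There limma recovered 84.5% of added tissue differences of 0.5 and 98.5% of those of 1 on the log2 scale. Of such changes between days in flag leaves it recovered 42.5% and 92%. At an added 0.25 it recovered 15.5% of tissue differences and 0% of changes between days. The simulated noise was independent between arrays, unlike that of the replicate series, so the shares for the real arrays may differ.

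Members and lists were chosen with earlier results of these data known. Named are all members, up to 3 tested probe sets with the highest mean signal in each group of other family genes, and for likeness the 3 named probe sets with the highest r. OsSUS6 and the probe sets too dim to test were named after their values were seen. Product names were not used here, so other family genes and tissue markers were taken by symbol, and invertase inhibitors and UDP-glucose pyrophosphorylases were not analysed. No sequence is shown.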

Additional observations from a re-analysis of the deposited data

Results flagged for a closer look

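The change from the first to the second day differed between the tissues for 2 members by the test of the difference itself in limma. For OsCIN1 the difference, flag minus seedling leaves, was -0.58 on the log2 scale (adjusted p = 0.027), and for LOC_Os02g01590 it was -0.78 (adjusted p = 0.048). Both replicate series of each tissue moved the same way for either gene. Over the 12 alternatives tried the difference of OsCIN1 ran from -0.81 to -0.28 and was called in 7, and that of LOC_Os02g01590 ran from -1.37 to -0.50 and was called in 4. Over all probe sets 1023 of 25948 were called (3.94%).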

How the results depend on the processing

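The tissue difference kept its direction and its call under all 13 alternatives for 9 of the 11 member probe sets, and between 9 and 11 members were called. The exceptions are the 2 probe sets of LOC_Os04g33490, of which S1_at was called under 2 alternatives and S1_s_at under 8. The day comparisons were less stable. The constants tried were 1 and one 4 times the 32 used. The number of members called moved from 0 to 1 in seedling leaves with the larger constant or the replicate block, and was 0 to 1 without single replicates. In flag leaves it moved from 0 to 2 with the larger constant or the replicate block and to 1 without the 16 h and 40 h or the 20 h and 44 h arrays, and was 0 to 2 without single replicates. For the difference between tissues it moved from 2 to 1 with the constant 1, quantile normalization or without the 20 h and 44 h arrays, to 0 with median centring or no filter, and was 0 to 2 without single replicates. The rhythm count of other family genes in seedling leaves went from 5 to 3 without the filter and to 1 without either replicate. In fits without a replicate the lone arrays are assumed to vary like the others.

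Counts over all probe sets moved by more than 1.5 times as follows. For the day change in seedling leaves 870 became 554 (constant 1), 1370 (larger constant), 496 (no filter), 2240 (replicate block), 2042 (without 16 h and 40 h) and 356 (without 20 h and 44 h), and 23 to 2386 without single replicates. In flag leaves 827 became 465 (no filter), 2240 (replicate block) and 1312 (without 16 h and 40 h), and 125 to 1623 without single replicates. For the difference 1023 became 537, 2696 and 2018 under the same settings and 429 without 20 h and 44 h, and 40 to 2013 without single replicates. Rhythm calls in seedling leaves went from 10330 to 2541 and 3318 without a replicate. Median centring moved the split of higher and lower calls from 406 and 421 to 538 and 263 in flag leaves, and from 524 and 499 to 614 and 329 for the difference. The replicate block changed no other call of a member than those given above. Among the rhythm calls of the other family genes it added that of OsNIN3 in flag leaves. The amplitude of LOC_Os02g01590 in flag leaves was 4.14 with the constant 1 and 2.84 with the larger one, and that of LOC_Os11g07440 2.13 and 0.87, since both come near background. The cause of the other changes was not tested.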
